A study of Mus musculus with 9 samples.

Results

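The castration response of 59-week-old and 17-week-old C57BL/6 mice was compared in specimens labelled bone marrow, array by array, on 6 of the 9 arrays of the study. These are all of its marrow arrays, 3 of old and 3 of young mice. The other 3 hold young bone. They entered the estimate of the spread, the common correction for the dyes and the filter on missing values. Every mouse was castrated or sham-operated at 7 weeks. On each array cDNA of a castrated mouse and of its matched sham-operated control was labelled with Cy3 or Cy5 and hybridised together, so that a value is a log ratio within a pair of mice and each array is 1 pair. The old mice were thus 52 weeks and the young mice 10 weeks past the operation, and age and time since the operation cannot be told apart. In both marrow groups the castrated mouse was in Cy5 on replicates 1 and 3 and in Cy3 on replicate 2. The latter is called the swapped array here, and among the young bone arrays it was replicate 3. The design text speaks of taking marrow out of the bone for young animals alone, and the extraction protocol speaks of pulverised bone, so the old specimens may also hold bone. Since the values are ratios and not levels, the labelled tissue could not be checked against levels of its marker genes, and fewer cells of a type and less RNA per cell cannot be told apart.

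Castration removes testicular androgen. In marrow, androgens restrain the production of B lymphocytes, which mature there from precursors that need interleukin-7, beside stromal cells, fat cells and blood vessels. Loss of androgen is known to expand these precursors and to favour marrow fat and bone loss. The question of the comparison is whether a castrated mouse differs from its control in another way when both are old.

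Which way round the ratio was deposited is unknown. The labels describe every array as castrated hybridised against sham, so the ratios were read as castrated over sham, the likely reading, and taken as log2. As the ratio could also be Cy5 over Cy3, every difference was recomputed with the swapped arrays multiplied by -1, called the channel reading. The difference is the mean of the 3 old arrays minus the mean of the 3 young arrays in either case, except that a missing value brings in the dye term. The effect of castration within a group comes from the same limma fit and is corrected for a common dye term, so it can lie a little away from the mean of its 3 arrays. Higher or lower in the old here means a higher or lower castrated-over-sham ratio in the old mice, not a higher or lower level.

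Old replicate 1 stood apart from the other arrays. Its log ratios had an SD across features of 0.458, against 0.190 to 0.291 on the other 8 arrays, and a median of -0.12, against -0.04 to 0.01. On it 407 features lay above 1, against 6 to 30 on each of the others. Across features, which are not independent replicates, the means of the old and young arrays correlated with r = 0.10 over 7592 features, and with r = 0.36 over 7645 features when old replicate 1 was left out. The old means correlated more with those of the young bone arrays, at r = 0.41 over 8296 features and at r = 0.50 over 8357 without old replicate 1; young marrow and young bone correlated at r = 0.37 over 7761. The part of bone in the old specimens in the differences below was not tested. Old replicate 1 correlated at -0.30 with young replicate 2, at 0.56 with old replicate 2 and at 0.19 with old replicate 3. Differences are therefore also given without it where they turn on it.

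No feature passed an adjusted p of 0.05 for the difference between old and young by limma, under either reading. Of the 8885 features tested, 0 (0%) were called under the castrated-over-sham reading, where the smallest adjusted p was 0.0537, and 0 (0%) under the channel reading, where it was 0.999. At an unadjusted p under 0.05, 1292 features (14.5%) differed under the castrated-over-sham reading, 798 (8.98%) with a higher ratio in the old mice and 494 (5.56%) with a lower one. With every array centred on its median the split was 867 higher out of 1168. Under the channel reading 67 features (0.754%) did so, 18 higher (0.203%) and 49 lower (0.551%). The deposited ratios of the 3 old arrays lay wholly above those of the 3 young arrays for 671 of the 7592 features with all 6 values (8.84%), and wholly below for 893 (11.8%). After the swapped arrays were multiplied by -1, 214 features (2.82%) had separate ranges. The difference had the same sign under both readings in 6265 of the 8885 features. Both readings use the unswapped arrays unchanged, which by itself favours equal signs. The median difference over all features was -0.065 under the castrated-over-sham reading, -0.01 under the channel reading and -0.02 without old replicate 1.

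The higher and the lower features were made up differently. Among the 798 features higher in the old mice, 440 (55.1%) carried no gene symbol, against 27.0% of all features tested and 14% of the 494 lower ones. Old replicate 1 was the highest of the 3 old arrays in 697 of the 760 higher features with all 3 old values (91.7%), against 28.9% over all features. The median ratio of the 798 was 0.88 on old replicate 1, 0.30 on replicate 2 and 0.08 on replicate 3, against 0.04, -0.23 and -0.26 on the young arrays. Of the 494 lower features, old replicate 1 was the lowest in 303 of 482 (62.9%), against 46.8% over all features. Without old replicate 1, 243 features (2.73%) were higher and 274 (3.08%) lower at an unadjusted p under 0.05; 194 of the 798 and 203 of the 494 were among them with the same sign. The excess of higher over lower features was thus absent without old replicate 1. It was also absent without old replicate 2 (331 higher of 679) and small without young replicate 3 (238 of 454).

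Malat1, a long noncoding RNA of nuclear speckles, gave the smallest p. Its log2 ratio was 1.76, 0.86 and 1.25 on the old arrays and 0.07, -0.12 and -0.02 on the young arrays. All old pairs were high and all young pairs lay near 0. The difference was 1.31 (SE 0.17, n = 3 against 3, limma adjusted p = 0.0537); it was 1.15 without old replicate 1 and 0.66 under the channel reading. The other features of Malat1 differed by 1.13 and 0.47, each with an adjusted p = 0.343 by limma.

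Spink5, a serine protease inhibitor best known from skin, gave 0.98, 0.66 and 0.81 on the old arrays and -0.11, -0.25 and -0.10 on the young arrays. All old values were positive and all young values negative. The difference was 0.97 (SE 0.13, limma adjusted p = 0.0537), with 0.93 without old replicate 1 and 0.36 under the channel reading. Strn3, a scaffold of a protein phosphatase complex, was positive on all 6 arrays, at 1.32, 1.34 and 1.57 in the old and 0.58, 0.46 and 0.58 in the young. It rose in both groups, and the difference of 0.87 (SE 0.15) had an adjusted p = 0.151 by limma. A second Strn3 feature did not show it, with a difference of 0.06.

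Among the other named features that were higher in the old mice, Bmp7, a bone morphogenetic protein, was measured by 2 features of a single accession. They gave 1.03, 0.35 and -0.02, and 0.90, 0.34 and -0.04, on the old arrays, and lay between -0.50 and -0.29 on the young arrays. The differences were 0.87 and 0.78, and 0.57 and 0.51 without old replicate 1. Rasa1, an activator of the Ras GTPase, showed the same order in 1 feature, with 1.04, 0.17 and 0.09 against -0.36, -0.43 and -0.24, a difference of 0.78 that was 0.50 without old replicate 1. The other Rasa1 features differed by -0.19 to -0.12. Utrn, the dystrophin relative utrophin, gave 0.88, 0.11 and 0.19 against -0.04, -0.74 and -0.10, so that 1 young array, the swapped one, was far below the others. In these genes old replicate 1 was the highest array by a wide margin. It was not for Tnrc18, at 0.44, 0.06 and 0.50 against -0.10, -0.31 and -0.49, nor by much for Svil, the actin-binding supervillin, at 0.10, -0.13 and -0.05 against -0.57, -0.52 and -0.65. Svil fell in young marrow (castration effect -0.58) and stood at -0.02 in the old group. The adjusted p of the difference was 0.343 for each of these features by limma.

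Xist, the RNA that silences an X chromosome in female cells and is normally little expressed in males, was the lower feature with the smallest p. It gave -1.19, -1.13 and -0.98 on the old arrays and -0.17, -0.39 and -0.16 on the young arrays. The old arrays agreed closely and lay well below the young ones. The difference was -0.86 (SE 0.13, limma adjusted p = 0.151), with -0.77 without old replicate 1 and -0.37 under the channel reading. Xist fell in the old group, by 1.14 on the log2 scale (limma adjusted p = 0.000465).

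Mgp, the matrix Gla protein that inhibits calcification, gave -1.55, -1.21 and -0.80 in the old and -0.14, -0.20 and -0.18 in the young. The young pairs were nearly identical, and every old pair was lower. The difference was -1.01 (SE 0.18, limma adjusted p = 0.235; -0.79 without old replicate 1; channel reading -0.34). Mgp fell in the old group, by 1.21 on the log2 scale (limma adjusted p = 0.00184).

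Egr1, an immediate early transcription factor, gave -0.53, -1.73 and -0.22 in the old and 0.51, 0.60 and 0.43 in the young. Every old value was negative and every young value positive. The Egr1 difference of -1.34 (SE 0.29, limma adjusted p = 0.343) rested most on the swapped array, old replicate 2. Multiplying the swapped arrays by -1 turned the sign to 0.21, and the arrays that were not swapped alone gave -0.85.

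Several lower genes were positive in young marrow and had smaller ratios, only some of them near 0, in the old. Thbd, the endothelial anticoagulant receptor thrombomodulin, gave 0.85, 0.70 and 1.06 in the young and -0.01, 0.37 and 0.37 in the old, a difference of -0.63 (SE 0.15, limma adjusted p = 0.343). A second Thbd feature differed by 0.05. Socs2, a feedback inhibitor of growth hormone signalling, gave 0.77, 0.63 and 0.69 in the young and -0.37, -0.02 and 0.10 in the old, a difference of -0.79, while its second feature differed by -0.12. Chchd10, a mitochondrial protein, gave 0.64, 0.89 and 0.59 against 0.10, 0.57 and -0.07. Thbd and Chchd10 rose in young marrow and did not pass in the old group. The remaining named features had smaller differences. These were Cetn3, a centrin of the centrosome (-0.60), the nucleolar protein Nol12 (-0.52), the tetraspanin Tspan9 (-0.49), Glo1, which detoxifies methylglyoxal (-0.49), Fnta, the farnesyltransferase alpha subunit (-0.48), and the chromatin protein Phf6 (-0.47). All had separate ranges and an adjusted p of 0.343 by limma.

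**Figure D1:**
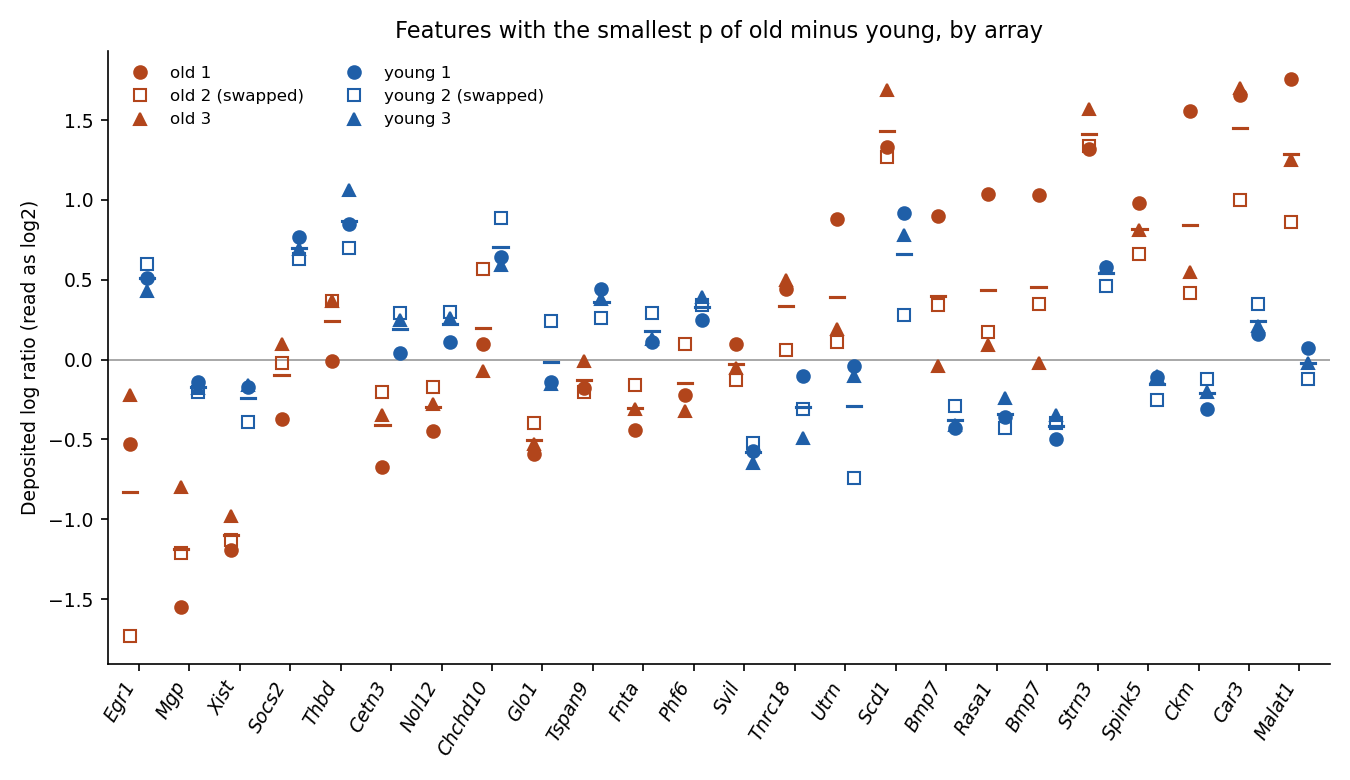
Deposited log ratios (vertical axis, read as log2 castrated over sham) of the 24 named features with the smallest p of old minus young, by array. Bars mark the mean of 3 arrays and open squares the swapped arrays; Malat1 lies at 0.86 to 1.76 on the old arrays and -0.12 to 0.07 on the young, and old replicate 1 is the highest array for Bmp7, Rasa1, Utrn and Ckm.

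Features that responded to castration in either group mostly did so in the same direction in the other. By limma 75 features (0.844%) passed in young marrow, 65 (0.732%) of them higher after castration, and 65 (0.732%) passed in the old group, 54 (0.608%) higher. Under the channel reading 0 features passed in young marrow (0%) and 0 in the old group (0%), with 67 and 203 at an unadjusted p under 0.05. Of the 75 young features, 34 also passed in the old group, and 56 had the same sign as the young effect on all 3 old arrays; over all features 1564 of 8885 did. Of the 65 old features, 51 had the sign of the old effect on all 3 young arrays. The median size of the effect over the 75 was 0.73 in the young mice and 0.54, signed alike, in the old; over the 65 it was 0.77 in the old and 0.59 in the young. Each set was chosen for its size in 1 group, so a smaller value in the other follows from the choice.

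**Figure D2:**
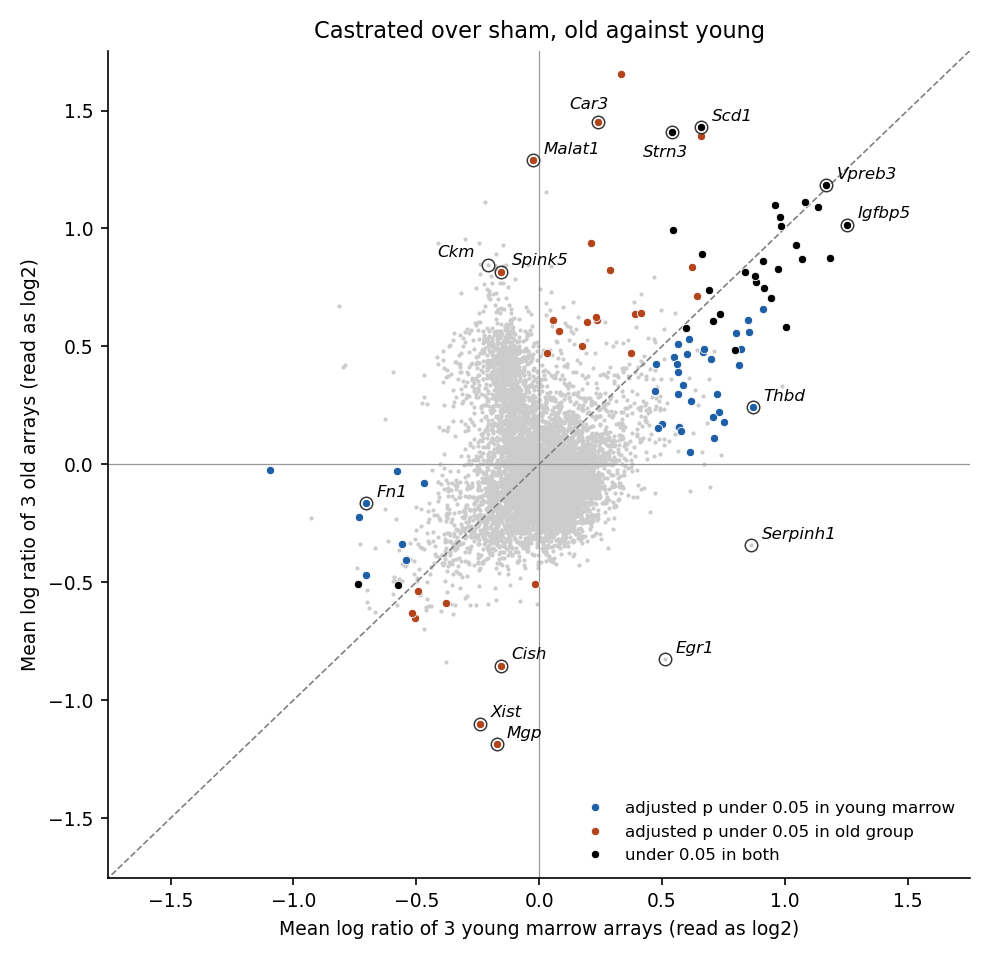
Mean log ratio of the 3 old arrays (vertical axis) against that of the 3 young marrow arrays (horizontal axis), both read as log2, for the 7592 features with all 6 values. Coloured points passed an adjusted p of 0.05 in a group and the dashed line marks equal ratios. Of the 34 features that passed in both, those with all 6 values are drawn, Vpreb3 and Igfbp5 among them. They lie on both sides of the line, and Strn3 and Scd1 lie farthest from it among them.

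The B lymphocyte genes that passed in both groups gave nearly the same response at both ages. Vpreb3, a partner of the surrogate light chain in early B cells, was 1.13, 0.99 and 1.43 in the old and 1.11, 1.0 and 1.40 in the young. The values overlapped almost point for point, and the difference was 0.01 with a 95% interval from -0.28 to 0.31. Il7r, the interleukin-7 receptor, was 0.78, 0.78 and 1.03 against 0.87, 0.75 and 1.11, a difference of -0.05 (-0.34 to 0.24). Pou2af1, a B cell coactivator, was 0.96, 1.22 and 1.15 against 1.04, 0.92 and 1.29, a difference of 0.03 (-0.28 to 0.34). Cd79b, a signalling chain of the B cell receptor, was 0.93, 0.87 and 1.34 against 0.84, 0.96 and 1.14, a difference of 0.07 (-0.36 to 0.50). Blk, a kinase of B cell receptor signalling, differed by 0.05 (-0.29 to 0.38). All of these rose in both groups, as did both features of the Fc receptor-like Fcrla and of the repressor Bach2. Under the castrated-over-sham reading 9 of the 20 features of the list rose in each group, against 0.732% of all features in the young and 0.608% in the old. The largest positive differences in the list belonged to genes of mature B cells that passed in neither group: Fcer2a, the low-affinity IgE receptor (0.33, -0.02 to 0.68), and Cr2, a complement receptor (0.32, -0.01 to 0.64). Ms4a1, the CD20 antigen, differed by -0.38 and Cd24a by -0.30. Over the 15 genes the median difference was 0.04, and -0.02 under the channel reading; 0 features had an unadjusted p under 0.05 in the castrated-over-sham reading, and 2 did under the channel reading, Ms4a1 (-0.55) and a Bach2 feature (-0.36). These intervals do not show equality, since differences up to their bounds remain possible. The genes called in both groups were named after their values had been seen, and a choice of genes that passed in both favours similar values.

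Igfbp5, Sox4, Foxo1 and Aff3 also rose in both groups in 1 or more features, while Clu passed in young marrow and Cish in the old group. Igfbp5, which binds insulin-like growth factors, was 1.21, 0.74 and 1.10 in the old and 1.30, 1.32 and 1.14 in the young, a difference of -0.24 (-0.56 to 0.08). A second Igfbp5 feature that passed in both groups differed by -0.31 (-0.79 to 0.18). Without old replicate 1 these differences were -0.32 and -0.53. The transcription factor Sox4 rose by 0.56 in the old and 0.98 in the young, a difference of -0.42 (limma adjusted p = 0.343), with -0.26 in its second feature, which passed in the young alone. Of the Foxo1 features tested, 4 in all, those with all 6 values differed by -0.31 and -0.33, the latter without passing in the old group, while those with missing arrays differed by 0.04 and -0.02. The transcription factor Aff3 rose by 0.98 in the old and 0.54 in the young, a difference of 0.45 (limma adjusted p = 0.343); the other Aff3 features differed by -0.10 to 0.45. Clu, the chaperone clusterin, rose in young marrow by 0.73 and stood at 0.12 in the old group in 1 feature, a difference of -0.60 (limma adjusted p = 0.343); the second feature, which did not pass in either group, differed by -0.70. Cish, a feedback inhibitor of cytokine signalling, fell by 0.81 in the old group, against an effect of -0.11 in the young, a difference of -0.70 (limma adjusted p = 0.343). It gave -0.61, -0.52 and -1.43 on the old arrays and -0.12, -0.10 and -0.25 on the young arrays. These genes too were singled out after their values were seen.

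The granulocyte genes were negative in both groups and showed no difference beyond the spread. Lyz2, a lysozyme, was -0.54, -0.78 and -0.28 in the old and -0.84, -0.68 and -0.58 in the young. Mmp8, the neutrophil collagenase, was -1.14, -0.46 and -0.25 against -0.44, -0.56 and -0.38. Padi4, which citrullinates histones, fell by 0.55 in young marrow and stood at -0.41 in the old group, and Anxa1, annexin A1, fell by 0.63 in the old group and stood at -0.52 in the young; their differences were 0.14 (-0.18 to 0.45) and -0.11 (-0.43 to 0.21). The old and young values of all 11 features overlapped. Over the 8 genes the median castration effect was -0.54 in the old and -0.50 in the young, the median difference 0.01 (channel reading 0.07), and 0.21 once arrays were centred and scaled to a common spread.

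**Figure D3:**
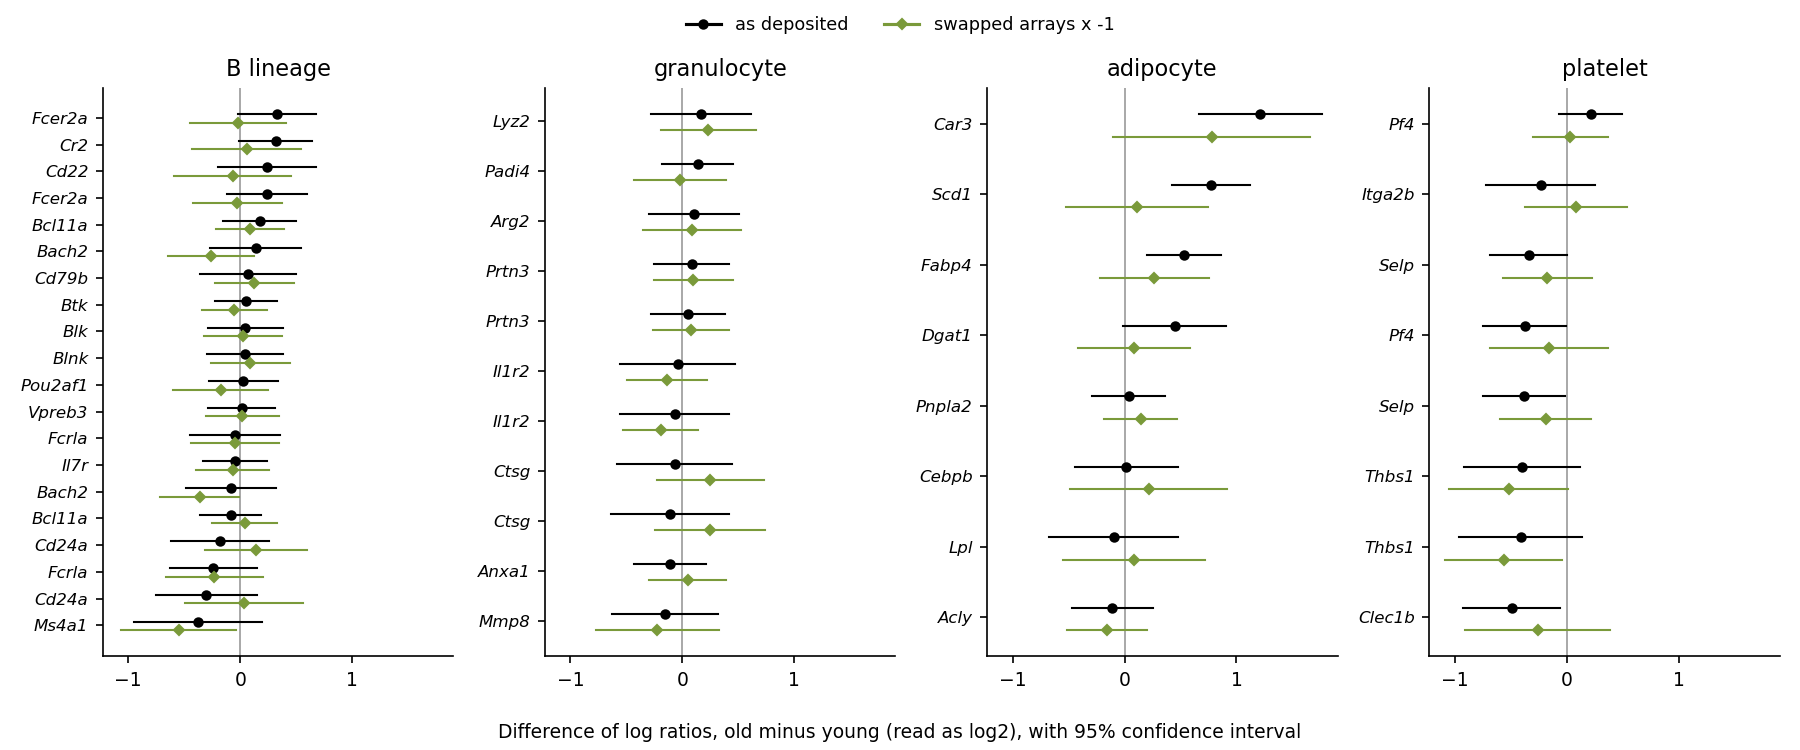
Difference of log ratios, old minus young (horizontal axis, read as log2), with its 95% confidence interval for every tested feature of 4 lists, as deposited (black) and with the swapped arrays multiplied by -1 (green). Vpreb3 lies at 0.01 and the granulocyte intervals all include 0, while Car3, Scd1 and Fabp4 lie at 1.21, 0.77 and 0.53 as deposited.

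Several genes of fat storage had higher ratios in the old mice. Car3, a carbonic anhydrase abundant in fat and slow muscle, gave 1.66, 1.0 and 1.70 in the old and 0.16, 0.35 and 0.21 in the young. Every old pair lay well above every young marrow pair. On the young bone arrays Car3 stood at 0.57, 1.61 and 0.81, so that 1 of them lay above old replicate 2. The difference was 1.21 (SE 0.25, limma adjusted p = 0.343), 1.15 without old replicate 1 and 0.78 under the channel reading. Scd1, which desaturates fatty acids, gave 1.33, 1.27 and 1.69 against 0.92, 0.28 and 0.78. It rose in both groups, with a difference of 0.77 (SE 0.16, adjusted p = 0.343 by limma; 0.11 under the channel reading). Fabp4, a fatty acid carrier of adipocytes, gave 0.71, 0.56 and 1.20 against 0.32, 0.16 and 0.39, a difference of 0.53 (SE 0.15). On the young bone arrays Scd1 stood at 0.86, 0.90 and 0.91 and Fabp4 at 0.53, 0.62 and 0.11. Car3 and Fabp4 rose in the old group and did not pass in the young. The rest of the list was mixed: Dgat1, which makes triglycerides, differed by 0.45 and Lpl, the lipoprotein lipase, by -0.10, at 0.34 in the old and 0.44 in the young. Of the 8 adipocyte and lipid storage genes tested, 6 were higher in the old, 3 of them at an unadjusted p under 0.05 (798 of 8885 features, 8.98%, over all). The median difference was 0.24, against -0.065 over all features, and 0.13 under the channel reading. It was 0.25 without old replicate 1.

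Skeletal muscle genes also had higher ratios on the old arrays. The median over the 9 muscle genes was 1.15, 0.20 and 0.31 on the old arrays and -0.04, 0.04 and 0.12 on the young arrays, so it was highest on old replicate 1. Ckm, the muscle creatine kinase, gave 1.56, 0.42 and 0.55 against -0.31, -0.12 and -0.20. Its difference of 1.05 (SE 0.28, limma adjusted p = 0.343) was 0.69 without old replicate 1. Neb, the thin filament protein nebulin, gave 1.53, 0.39 and 0.60 against 0.04, -0.01 and 0.12, and Mylpf, a fast myosin light chain, 1.15, 0.42 and 0.50 against 0.15, 0.24 and 0.02. Acta1, skeletal alpha-actin, differed by 0.07 to 0.25 over its 3 features. Of the 9 genes 8 were higher in the old, and 2 of 12 features had an unadjusted p under 0.05 in that direction (8.98% over all features); 0 passed in either group. When old replicate 1 was left out, 3 of the 9 genes were lower and 1 feature had such a p. The median difference was 0.55, 0.43 under the channel reading and 0.30 without old replicate 1. The part of muscle in the differences of other genes, Car3 among them, was not tested.

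Platelet genes had lower ratios in the old mice. Clec1b, a platelet activation receptor, gave 0.03, 0.00 and 0.37 in the old and 0.46, 0.35 and 1.07 in the young, a difference of -0.49 (SE 0.20). Selp, the adhesion receptor P-selectin, gave -0.06, 0.01 and 0.33 against 0.48, 0.30 and 0.64, a difference of -0.38. Pf4, a platelet chemokine, gave 0.30, 0.06 and 0.51 against 0.47, 0.39 and 1.14, a difference of -0.38, but a second Pf4 feature differed by 0.22. Thbs1, a thrombospondin stored in platelets, differed by -0.40 and -0.41 in its 2 features, and Itga2b, the platelet integrin alpha chain, by -0.23. The old and young ranges overlapped slightly in Clec1b, Selp and the first Pf4 feature. In 0 of the 8 features with all 6 values did the old arrays lie wholly below the young (11.8% over all features). In 1 feature they lay wholly above (8.84% over all features). Averaged over features all 5 genes were lower, and 3 of 8 features had an unadjusted p under 0.05 in that direction (5.56% over all features). The median difference was -0.36, -0.18 under the channel reading and -0.31 without old replicate 1. The median castration effect was 0.60 in the young and 0.15 in the old, and no feature of the list passed in either group.

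The other blood cell lists had medians near that of all features. The median difference was 0.003 over 10 monocyte, macrophage and dendritic cell genes, -0.09 over 7 erythroid genes, -0.03 over 8 stem and progenitor genes, -0.085 over 3 plasma cell and immunoglobulin genes and -0.08 over 3 T and NK cell genes. These medians were 0.05, -0.11, 0.03, -0.04 and -0.10 without old replicate 1. Under the channel reading the erythroid median was 0.12. The erythroid list changed when old replicate 1 was left out. With it 5 of 7 genes were lower and 0 of 11 features had an unadjusted p under 0.05. Without it all 7 genes were lower and 5 features had such a p in that direction (3.08% over all features). All 5 belonged to Tfrc, the transferrin receptor that brings in iron, whose differences were -0.18 to -0.46 with that array and -0.52 to -0.82 without it. In the Tfrc feature at -0.46 the ratios were 0.09, 0.09 and -1.16 in the old and 0.05, 0.64 and -0.29 in the young, and the ranges overlapped. In all 5 Tfrc features old replicate 3 was the low array, at -1.16 to -0.70. Old replicate 1 stood at 0.09 to 0.37 and old replicate 2 at -0.05 to 0.09. The count without old replicate 1 thus rested on 1 gene and on its low values on old replicate 3. Among the myeloid genes, Cd163, the scavenger receptor for haemoglobin on macrophages, gave 0.47, 0.61 and 0.33 in the old and 0.11, 0.12 and -0.13 in the young. It rose in the old group, and the difference was 0.44 (SE 0.12, limma adjusted p = 0.343; channel reading 0.11). Aif1, a calcium-binding protein of macrophages, differed in the other direction, by -0.41 and -0.32 in its 2 features. The immunoglobulin gene Ighg3 varied most from pair to pair, with 0.03, 1.42 and 0.35 in the old and 0.27, 0.58 and -0.53 in the young.

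Genes of bone matrix and stroma went in both directions. Serpinh1, the collagen chaperone, gave -1.09, -0.15 and 0.21 in the old and 0.84, 0.78 and 0.97 in the young. All young pairs were high and the old pairs were scattered below them. The difference was -1.21 (SE 0.34, limma adjusted p = 0.343), -0.81 without old replicate 1 and -0.59 under the channel reading. Sparc, osteonectin, followed the same order, with -0.74, 0.02 and 0.38 against 0.63, 0.40 and 0.81, a difference of -0.73 that was -0.35 without old replicate 1. Fn1, fibronectin, went the other way. It fell in young marrow in both features, at -0.70, -0.58 and -0.83 in 1 of them, and stood at -0.17, -0.12 and -0.20 in the old; the differences were 0.54 and 0.51. Col5a2, a chain of type V collagen measured on 2 old arrays, differed by 0.60. Over the 18 bone matrix genes 8 were higher and 10 lower. Of their 24 features 3 were higher and 3 lower at an unadjusted p under 0.05 (8.98% and 5.56% over all features). Without old replicate 1 the counts were 2 and 2 (2.73% and 3.08% over all features). The median difference of -0.16 was -0.02 without that array. Among 12 stromal and niche genes the median was -0.24, and -0.09 without old replicate 1. Csf1, the macrophage colony-stimulating factor, gave -0.60, -0.14 and -0.37 against -0.08, 0.19 and -0.02, a difference of -0.40. Pdgfrb, a growth factor receptor of perivascular cells, differed by -0.49 and -0.66 in its 2 features, and Ebf3, a transcription factor of marrow stroma, by 0.59 and 0.39. Cxcl12, the chemokine that retains blood progenitors, gave 0.13, 0.28 and 0.41 against 0.52, 0.55 and 0.77, a difference of -0.34 (limma adjusted p = 0.354) that was -0.22 without old replicate 1.

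Signalling and endothelial genes had medians below that of all features, which came closer to 0 without old replicate 1, and osteoclast genes lay near 0. The median difference was -0.11 over 10 genes of RANKL, OPG and Wnt signalling, -0.17 over 20 genes of BMP, TGF-beta and IGF signalling, -0.01 over 10 osteoclast genes and -0.21 over 8 endothelial genes. Without old replicate 1 they were 0.02, -0.04, 0.05 and -0.07. Tnfsf11, the osteoclast cytokine RANKL, differed by -0.45 in a feature with no value on old replicate 1 and by -0.14 in another with all values, which was -0.03 without that array. Traf6, which relays RANK signals, was discordant between features, at 1.18, -0.15, -0.20 and -0.44, and in the feature at 1.18 old replicate 1 stood at 2.17; without it the outermost features were at 0.61 and -0.22. Clcn7, the chloride transporter of resorbing osteoclasts, differed by 0.42, and by 0.23 without old replicate 1. Tie1, a receptor of endothelial cells, gave -0.32, -0.03 and 0.09 against 0.66, 0.23 and 0.32, a difference of -0.49 (SE 0.17). Kdr, another endothelial receptor, went the other way. It gave 0.61, 0.29 and 0.51 against 0.21, 0.33 and 0.03, a difference of 0.28 (SE 0.14). Of the 8 endothelial genes 6 were lower and 2 higher, and their median was -0.02 under the channel reading. All 8 genes of sex steroid receptors, metabolism and response were lower in the old, with a median of -0.16 that was -0.02 under the channel reading and -0.06 with arrays centred and scaled to a common spread. It was -0.07, with 7 genes lower, without old replicate 1. With all arrays 1 of 11 features, of the androgen receptor coactivator Ncoa4, had an unadjusted p under 0.05 (-0.35). Over all features 5.56% had such a p in this direction, and 60.6% were lower.

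Heat shock chaperones, which refold proteins and which heat shock factor 1 induces together, had lower ratios in the old mice. Hsp90aa1, the inducible cytosolic Hsp90, was measured by 9 features that were tested, and all were lower in the old, with differences from -0.39 to -0.54. The feature with the smallest p gave -0.18, -0.08 and -0.44 in the old and 0.15, 0.30 and 0.39 in the young, a difference of -0.51 (SE 0.15, limma adjusted p = 0.343; channel reading -0.26). Chordc1, an Hsp90 cochaperone, differed by -0.53, Stip1, which links Hsp70 to Hsp90, by -0.49, and Hspe1, the mitochondrial chaperonin partner, by -0.40. Hsph1, an Hsp110 chaperone, gave 0.21, -0.27 and -1.01 in the old and 0.12, -0.07 and 0.79 in the young, a difference of -0.64 with overlapping ranges. Of the 17 genes 14 were lower, and 8 of 31 features had an unadjusted p under 0.05 in that direction, 5 of them from Hsp90aa1 (5.56% over all features). The count was 16 of 31 without old replicate 1 (3.08% over all features). In 14 of the 27 features with all 6 values the old arrays lay wholly below the young (11.8% over all features). Hsp90aa1 alone gave 9 of the 31 features tested, so these counts of features are not counts of separate genes. The median difference was -0.22, -0.10 under the channel reading and -0.36 without old replicate 1. Old replicate 1 had the highest old median here, 0.10, against -0.05 and -0.305 on replicates 2 and 3. The young medians were 0.07, 0.06 and 0.23, so old replicate 1 lay above young replicates 1 and 2. Leaving it out gives more weight to old replicate 3, the lowest array.

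Heat shock factor binds repeats of GAA in alternating orientation. The promoter of Hspe1 is shown because it alone, among 14 tested chaperone genes with a window, held at least 3 such units in a row. The search used GAA-NN-TTC-NN-GAA and its reverse complement TTC-NN-GAA-NN-TTC in the 250 bases before the start, and 153 of 32851 windows of the RefSeq table held either (0.466%). The window lies on chromosome 1 of GRCm38.p6, chr1:55087898-55088147, plus strand, and the capitals mark the run of 18 bases that the overlapping matches cover, 89 to 72 bases before the start. The gene Hspd1 shares this promoter in the opposite orientation.
Hspe1 promoter: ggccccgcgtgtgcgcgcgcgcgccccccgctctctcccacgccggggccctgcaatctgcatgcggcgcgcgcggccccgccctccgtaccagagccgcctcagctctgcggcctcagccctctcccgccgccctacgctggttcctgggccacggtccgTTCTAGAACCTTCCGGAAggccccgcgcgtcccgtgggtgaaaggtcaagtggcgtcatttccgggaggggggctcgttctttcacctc
A match describes these letters and not a bound site. Hspe1 gave 0.00, -0.35 and -0.24 in the old and -0.01, 0.18 and 0.44 in the young, with 1 old value just above the lowest young value and the channel difference at -0.05.

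Genes of protein synthesis, turnover and respiration had slightly lower ratios in the old. All 27 proteasome genes tested were lower, with a median of -0.26; 12 of 33 features had an unadjusted p under 0.05 (5.56% over all features in this direction), and the old arrays lay wholly below the young in 18 of 33 (11.8% over all features). Psma1, a subunit of the proteasome core, gave -0.23, -0.35 and -0.16 in the old and 0.06, 0.25 and 0.25 in the young, a difference of -0.43 (SE 0.13, adjusted p = 0.343 by limma). Of 45 genes of oxidative phosphorylation 44 were lower, with a median of -0.22 and 10 of 59 features at an unadjusted p under 0.05 (5.56% over all). Cox7a2, a subunit of cytochrome c oxidase, gave -0.28, -0.41 and -0.26 against 0.03, 0.10 and 0.19. Of 44 ribosomal protein genes 42 were lower, with a median of -0.15 and 5 of 64 features at an unadjusted p under 0.05, a share close to the 5.56% over all features. Over all features 60.6% were lower and the median was -0.065. Under the channel reading the medians were -0.003 for the proteasome, 0.03 for oxidative phosphorylation and 0.01 for the ribosome. Without old replicate 1 the castrated-over-sham medians were -0.25, -0.21 and -0.14, but the counts at an unadjusted p under 0.05 fell to 8, 3 and 3 (3.08% over all features).

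Proliferation and stress genes had the same dependence on the reading. Of 31 cell cycle genes 28 were lower in the old, with a median of -0.24, but 0.06 under the channel reading. Pcna, the replication clamp, gave -0.26, -0.24 and -0.15 in the old and 0.17, 0.26 and 0.08 in the young, a difference of -0.39, and Ccne1, cyclin E1, gave -0.67, -0.44 and -0.63 against -0.07, 0.29 and -0.45. In this list 7 of 55 features had an unadjusted p under 0.05 lower in the old and 1 higher (5.56% and 8.98% over all features). There were 12 lower and 0 higher without old replicate 1 (3.08% and 2.73% over all). Of 15 genes of oxidative stress defence 13 were lower, with a median of -0.13, against 0.12 under the channel reading; the peroxiredoxins Prdx1, Prdx2, Prdx3 and Prdx4 differed by -0.45, -0.43, -0.34 and -0.38. Of 15 immediate early genes 14 were lower, with a median of -0.17 (channel reading -0.04; -0.08 with arrays centred and scaled). Of these genes 11 were lower when old replicate 1 was left out. Beside Egr1, they included Ier2, with -0.31, -0.33 and -0.40 against -0.14, 0.01 and 0.48, and Ier3, which fell by 0.63 in the old group and differed by -0.39. Over 11 senescence and p53 genes the median of -0.14 was -0.05 without old replicate 1, -0.07 with arrays centred and scaled, and 0.01 under the channel reading. Among them Gadd45a, a DNA damage response gene, differed by -0.46 and the cell cycle inhibitor Cdkn2c by -0.38. The interferon list lay at -0.05 over 12 genes, with 0 features at an unadjusted p under 0.05, and the inflammatory list at -0.07 over 16. In the latter the chemokine Ccl4 gave 0.17, 0.33 and 0.28 in the old and -0.26, -0.13 and -0.03 in the young, a difference of 0.40 (SE 0.13). No feature of any list passed the adjusted threshold for the difference under either reading.

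**Figure D4:**
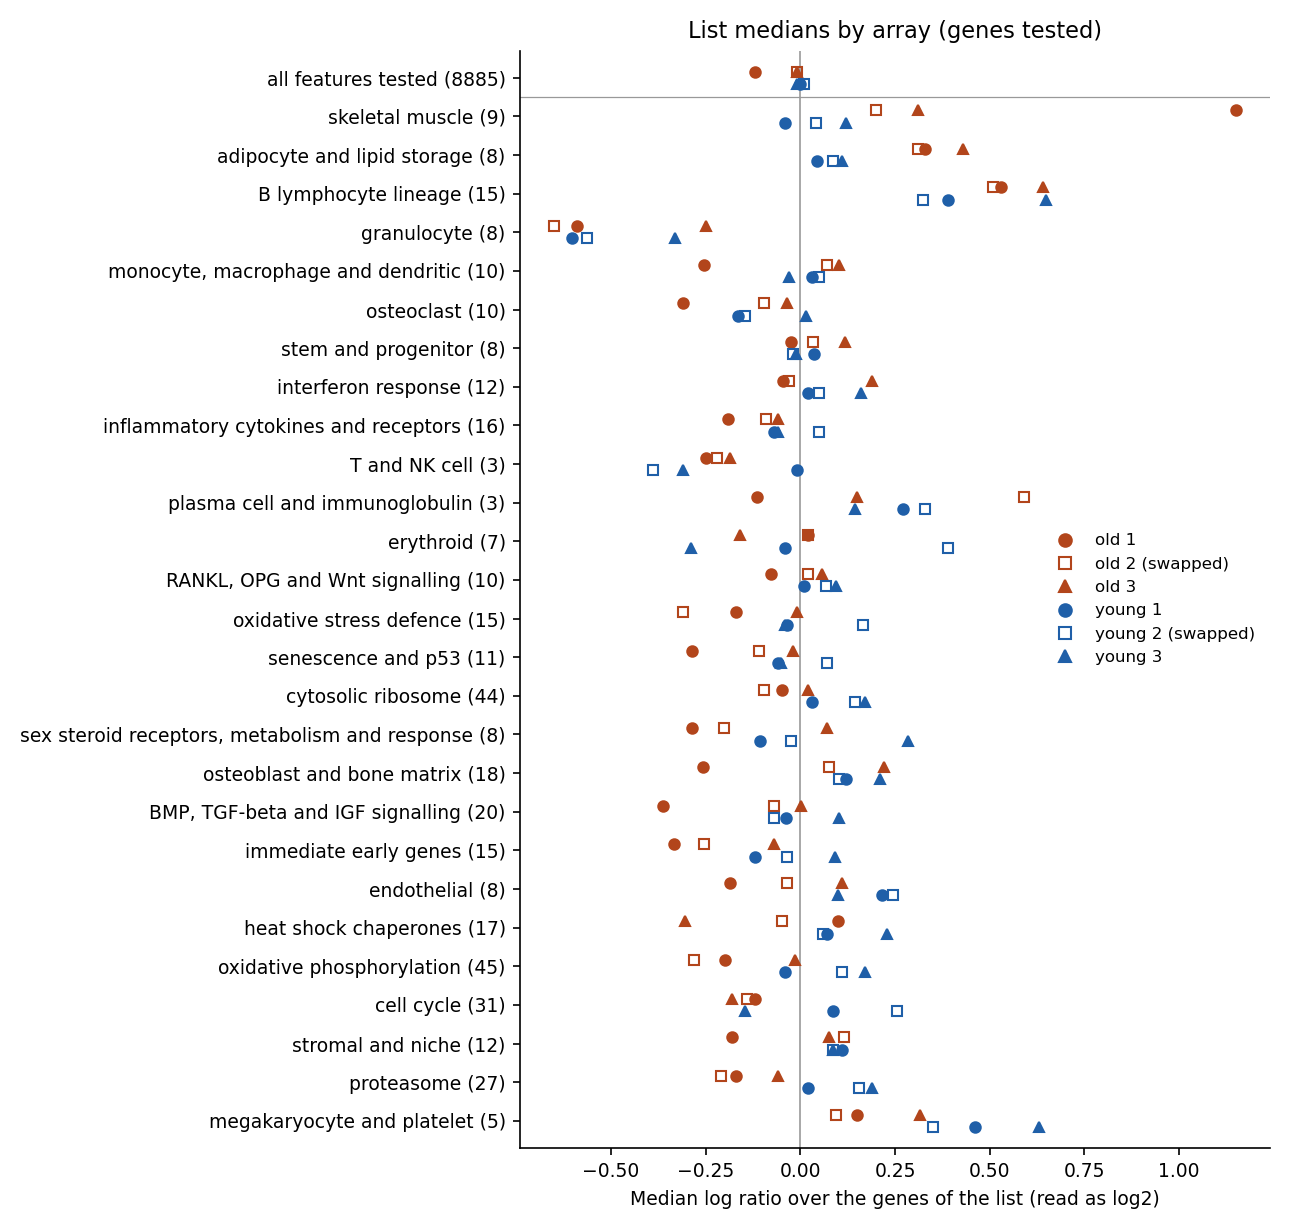
Median log ratio (horizontal axis, read as log2 castrated over sham) of each list on each of the 6 arrays, with the number of genes tested in brackets; open squares are the swapped arrays. B lymphocyte medians lie above 0 and granulocyte medians below 0 on all 6 arrays, muscle stands at 1.15 on old replicate 1, and the proteasome medians of the old arrays lie below those of the young.

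Few features kept their difference under both readings. Over all features, 9 had the same sign and an unadjusted p under 0.05 in each reading, 7 of them higher in the old, and 4 of the 9 carried a gene symbol and all 6 values. Nlk, a kinase that restrains Wnt signalling, gave 0.78, 0.01 and 0.46 in the old and -0.52, 0.09 and -0.02 in the young, a difference of 0.57 (channel reading 0.62). Cotl1, which binds actin, gave -0.18, -0.71 and 0.21 against -0.98, -0.44 and -1.37, a difference of 0.70 (channel reading 0.88). Foxo3, a transcription factor of stress resistance, gave 1.24, -0.50 and -0.16 against -0.34, -0.43 and -1.11, and Sinhcaf, a subunit of a histone deacetylase complex, 1.41, 0.00 and 0.26 against -0.49, -0.08 and -0.29. Without old replicate 1 their castrated-over-sham differences were 0.39 for Nlk, 0.62 for Cotl1, 0.31 for Foxo3 and 0.45 for Sinhcaf. In all 4 genes the swapped arrays of old and young lay close together, as similar differences under both readings require. In the lower direction the smallest p values of the channel reading itself belonged to Cmtr1, an RNA cap methyltransferase (-0.55), Tmem104 (-0.81), both features of the matrix glycoprotein Thbs2 (-0.62 and -0.60), and Spag9, a scaffold of stress kinases (-0.58). In the higher direction they belonged to Cotl1, Nlk, the phosphatase regulator Ppp1r10 (0.41), the linker histone H1f3 (0.83) and Il3ra, the interleukin-3 receptor (0.58). For Il3ra the castrated-over-sham difference was 0.08. The adjusted p was 0.999 for each of them by limma under the channel reading.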

How the data were processed

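The data are 2-colour microarrays of mouse cDNA. The authors deposited 1 table of log ratios for 11552 features, read here as log2 values; the log base, direction, background correction and normalization are not given in the sources used here. In the deposited table the array medians over the features tested were -0.12 to 0.01 and the means near 0, so the arrays look centred; no scaling was added. Signal intensities were not used here, so the signal behind a ratio is unknown and precision is set by how many arrays there are. Platform annotation gave 1 gene symbol for 8050 features, several for 672 and none for 2830; features with several were not named, and 7880 gene IDs matched the mouse reference table.

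Features were kept where 2 or more arrays in each group, and 1 or more swapped arrays, had a value, and were fitted with limma 3.58.1 in R 4.3.3 (young marrow, old minus young, young bone, common dye term; all 9 arrays; 5 residual degrees of freedom), with Benjamini-Hochberg adjustment over 8885 features and a threshold of 0.05. The labels name each array as a separate pair of mice. SE is that of the fit, and intervals are 95%. Simulated data had the residual spread of each feature and 50 features changed at each size. Of these, 8 were found at a difference of 0.5, 34 at 1, 45 at 1.5 and 47 at 2 (log2). All simulated arrays had the same spread and deviated independently. The real arrays did not, so these counts need not hold for them.

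Features were named by rule: the 12 with the smallest p in each direction, the 5 in each direction under the channel reading, those below an unadjusted p of 0.05 under both, and up to 4 members of each of 27 lists, all with 1 symbol and all 6 marrow values. Others are said to have been chosen after their values were seen, or are further features and members of a list. Members, lists and rules were chosen with earlier results of these data known. A gene with several features counts in a list by their mean.

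Same-numbered old and young arrays deviated together from their group means (r = 0.60, 0.27 and 0.30 across features; other pairs -0.52 to 0.13), a pairing that comes from these correlations and not from the labels; number 2 is the swapped array in both groups. A fit with the replicate number as a block was therefore run. The alternatives covered centring, scaling, filters, the dye term, array weights, averaging of features that share an accession, and each array left out.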

Additional observations from a re-analysis of the deposited data

Results flagged for a closer look

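Among the named features with the smallest p, 10 had every old array on one side of 0 and every young array on the other. The castrated-over-sham difference was 0.97 for Spink5 (limma adjusted p = 0.0537), 0.63 for Tnrc18, 0.69 for Utrn, 1.05 for Ckm and 0.78 for Rasa1, which were positive in the old and negative in the young. It was -1.34 for Egr1, -0.52 for Nol12, -0.49 for Tspan9, -0.60 for Cetn3 and -0.48 for Fnta, which were negative in the old and positive in the young. For all but Spink5 the adjusted p was 0.343. Features chosen for a small p tend to show such signs, and under the channel reading the sign of the Egr1 difference turned.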

How the results depend on the processing

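For the difference between old and young under the castrated-over-sham reading, 0 features passed with unswapped arrays alone, marrow arrays alone, no dye term, centred arrays, no filter on missing values or robust moderation. The fit with a replicate block and dye term also gave 0, with 1793 features at an unadjusted p under 0.05 against 1292, so the block changed no call. Centring and scaling of the arrays gave 3 (Spink5, Malat1 and Mgp, adjusted p = 0.0474), features with values on all 9 arrays gave 2 (Spink5 and Malat1, adjusted p = 0.0479), and averaging features of a single accession, chosen after seeing the data, gave 2 (Spink5 and Malat1, adjusted p = 0.0489). Array weights, whose estimation stopped before it converged, gave 1975 features, 1071 higher and 904 lower. Leaving out 1 array gave 0 to 885 features: 885 (804 higher) without old replicate 3 and 0 without any other. Under the channel reading array weights gave 1081 features and every other setting, the replicate block among them, gave 0. The 1564 features with separate ranges became 214 once the swapped arrays were multiplied by -1. With array weights the difference of Cmtr1 reversed to 0.23 and that of 1 Thbs2 feature to 0.18. The cause of these shifts was not tested. Signal over background is unknown, so weak features could not be set apart.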
